A study of Mus musculus with 4 samples.

Results

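Cluster 7 of the CD4 T cells of mesenteric lymph nodes held the cells with the most Actb, the gene of cytoplasmic beta-actin. Its members were the cells that the authors kept after their filter and to which their PhenoGraph clustering gave the number 7. They were 721 of 16948 analysed cells. The working name of the cluster gave Actb, Slc39a1, Notch2, Abhd2, Rbm15 and Kdm6b as its leading genes. These 6 genes were here within the top 15 genes by the ratio nearest to 1 over the libraries, headed by Actb, Notch2 and Slc39a1. Every gene of the cells had gone into the clustering, so what separates cluster 7 from the other cells is given as a description and without a test.

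Beta-actin forms the filaments that shape the T cell cortex and the contact with antigen-presenting cells, and actin genes belong to the transcripts that T cells make soon after activation. Slc39a1 (ZIP1) imports zinc into the cell, Notch2 is a receptor for membrane-bound ligands, and Abhd2 is a serine hydrolase. Rbm15 helps to bring the writer complex of N6-methyladenosine to RNA, and Kdm6b (JMJD3) is a histone demethylase. Mesenteric lymph nodes drain the intestine, where regulatory T (Treg) cells can be induced outside the thymus.

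The study profiled sorted CD4 T cells of male mice by 10x 3′ v3 single-cell RNA sequencing. Its 4 groups were colonized Foxp3CNS1-, germ-free Foxp3CNS1-, colonized Foxp3GFP and germ-free Foxp3GFP mice. Foxp3GFP mice report Foxp3 by GFP, and Foxp3CNS1- mice lack CNS1, an intronic Foxp3 enhancer used in Treg induction in the periphery. Colonized mice had received microbiota from the feces of specific-pathogen-free donors 9 days earlier. Each group was 1 library from a pool of 3 mice, with GFP-positive and GFP-negative cells brought together at 50% each and 5000 cells targeted. Animals cannot be told apart within a pool, so no comparison between groups has a replicate and none was tested. Effects of library or batch cannot be told apart from those of the group.

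Cluster 7 held 111 of 5406 cells of the colonized Foxp3CNS1- library, 166 of 3533 of the germ-free Foxp3CNS1- library, 162 of 4030 of the colonized Foxp3GFP library and 282 of 3979 of the germ-free Foxp3GFP library. In the same order its cells held 432635, 451191, 603215 and 649934 UMIs, of library totals between 9360112 and 17929193. The shares were 2.05%, 4.70%, 4.02% and 7.09%, and they are not compared between groups, because leading genes such as Notch2 also differed between the libraries in the other cells. The median cell of cluster 7 had 2334 UMIs and 998 genes, against 2588 UMIs and 1027 genes in all other analysed cells. The germ-free Foxp3GFP library stood lower, with a median of 1818.5 UMIs in cluster 7 against 2434 in its other cells. Mitochondrial genes took 2.22% of the median cell in cluster 7 and 2.23% in the others. Of 157 barcodes found in more than 1 library, 9 belonged to cells of cluster 7.

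The cells carried T cell transcripts. The 18 T cell identity genes summed to 12289.8 UMIs scaled to a common total of 1000000 for the summed cells (CPM) in cluster 7, with libraries between 11553.5 and 12708.6, against 12078.3 CPM in the other cells. Markers of other cell types were no higher than in the rest for B cells, plasma cells, CD8 T cells and gamma-delta T cells. B cell genes summed to 151 CPM (129 to 162 over the libraries) in cluster 7, with Ebf1, Cr2 and Blnk among its genes at 0, against 204 CPM in the others. Plasma cell genes summed to 819 CPM (649 to 1186) with Sdc1 at 0, against 1182 CPM. Dendritic cell genes had 298 CPM with Flt3 and Batf3 at 0, against 298 CPM. Monocyte and macrophage genes had 228 CPM against 220.1 CPM in the others, NK cell and ILC genes 94.5 against 77.3 CPM, stromal genes 86.1 against 67.9 CPM, and neutrophil genes 8.89 against 5.15 CPM. The part of these other cell types in the values below was not tested.

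The promoters of leading genes are shown because these genes were high in the summed cells of the same cluster. The windows lie upstream of both the RefSeq and the GENCODE gene start on the GRCm38 (mm10) build, with letters credited to the RefSeq table of GRCm38.p6, and run 5′ to 3′ on the strand of the gene. Capitals mark GGGCGG or CCAAT on either strand, 2 motifs that do not overlap in these windows. The window of Slc39a1 is chr3:90247942-90248171 on the plus strand, that of Notch2 is chr3:98013288-98013526 on the plus strand, and that of Abhd2 is chr7:79273016-79273198 on the plus strand.
Slc39a1: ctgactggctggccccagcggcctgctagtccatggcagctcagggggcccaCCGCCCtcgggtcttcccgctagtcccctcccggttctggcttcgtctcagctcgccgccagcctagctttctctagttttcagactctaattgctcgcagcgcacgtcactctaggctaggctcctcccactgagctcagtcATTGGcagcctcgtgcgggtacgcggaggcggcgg
Notch2: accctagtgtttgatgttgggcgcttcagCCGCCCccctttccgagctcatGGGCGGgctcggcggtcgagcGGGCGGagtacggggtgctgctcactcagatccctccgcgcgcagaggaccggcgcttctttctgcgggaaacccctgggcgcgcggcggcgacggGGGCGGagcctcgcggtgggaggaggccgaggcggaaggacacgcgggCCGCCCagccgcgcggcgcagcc
Abhd2: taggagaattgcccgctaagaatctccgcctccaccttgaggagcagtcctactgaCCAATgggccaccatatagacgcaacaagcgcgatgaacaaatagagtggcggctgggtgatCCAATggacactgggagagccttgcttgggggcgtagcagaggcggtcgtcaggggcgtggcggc
The Notch2 window held 5 GGGCGG matches, the Abhd2 window held 2 CCAAT matches, and the Slc39a1 window held 1 of each. Of the 46 genes counted below as more than 2-fold higher in cluster 7, 37 had a promoter in the RefSeq table. GGGCGG was found in 25 of these 37 promoters, or 67.6%, against 61.4% of the 6683 promoters of tested genes and 32.9% of all 27025 promoters. CCAAT was found in 13 of 37, or 35.1%, against 37.1% of tested genes. The CArG box was in 0 of 37 promoters, against 0.988% of tested genes. TGACGTCA was in 2 of 37, against 2.99%, TGANTCA in 1 of 37, against 3.68%, and TGGGAA in 6 of 37, against 19.5% of tested genes. These motifs were searched on both strands from 250 bases before the gene start and were picked after the gene values had been seen. A match is a description of letters and not a binding site.

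Actb (chromosome 5, 142903115 to 142906754, minus strand) set cluster 7 apart cell by cell. It had 26479.6 CPM in colonized Foxp3CNS1-, 26164.1 in germ-free Foxp3CNS1-, 28910.1 in colonized Foxp3GFP and 26453.5 in germ-free Foxp3GFP cells of cluster 7. All other cells of the same libraries had 3800.4, 4126, 4190.5 and 4435 CPM. The log2 ratio of cluster 7 over the others was 2.71 ± 0.11 (SD over the 4 libraries, which are of 4 different groups). Every library of cluster 7 lay above every library of the other cells. Cluster 4, the cluster with the next highest Actb, had 11798, 12515.5, 12647.5 and 12343.5 CPM in the same order.

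To compare cells at equal depth, each was thinned to 1000 UMIs, which left out 20 cells of cluster 7. The median cell then had 25 Actb UMIs in cluster 7, 12 in cluster 4 and 3 in the other 8 clusters. The 5th and 95th percentiles were 16 and 41 in cluster 7, 6 and 21 in cluster 4, and 0 and 7 in the other 8 clusters. The library medians of cluster 7 were 26, 25, 27 and 24 in the order given above. At least 15 Actb UMIs were found in 97.7% of the thinned cells of cluster 7 (95% exact binomial interval 96.3 to 98.7), 29.3% of cluster 4 (27.2 to 31.4) and 0.154% of the other 8 clusters (0.0963 to 0.233). The distributions of cluster 7 and cluster 4 therefore overlapped, and those of cluster 7 and the other 8 clusters hardly did. Actg1, the second cytoplasmic actin, had 2719 CPM in cluster 7, 1740.3 in cluster 4 and between 1367 and 3423 in the other 8 clusters.

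**Figure D1:**
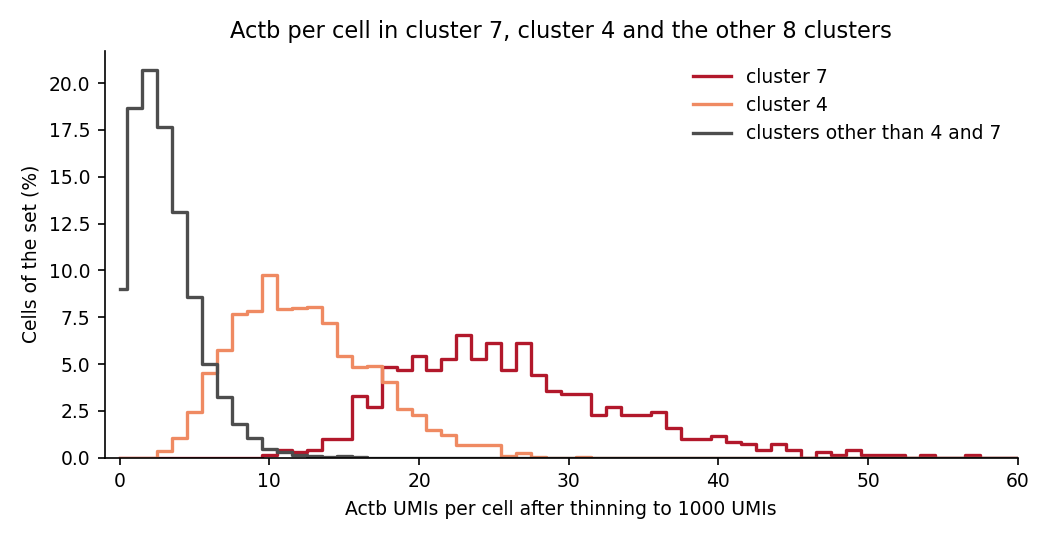
Share of cells (%, vertical axis) by Actb UMIs after thinning each cell to 1000 UMIs (horizontal axis), for cluster 7, cluster 4 and the clusters other than 4 and 7. The medians are 25, 12 and 3 UMIs, and cluster 4 lies between the others.

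The other leading genes were sparse in single cells and were again highest in cluster 7. Slc39a1 (chromosome 3, 90248172 to 90253612) had 83.2, 104, 103 and 80.0 CPM in cluster 7, against 12.7, 16.8, 18.2 and 18.1 CPM in all other cells, with the libraries in the order colonized Foxp3CNS1-, germ-free Foxp3CNS1-, colonized Foxp3GFP and germ-free Foxp3GFP. Its log2 ratio was 2.50 ± 0.25 (SD, 4 libraries). Notch2 (chromosome 3, 98013527 to 98150361) had 41.6, 88.7, 58.0 and 70.8 CPM, against 8.23, 18.1, 10.8 and 14.96 CPM. For both genes the lowest library of cluster 7 was above the highest library of the others. Abhd2 (chromosome 7, 79273199 to 79365508) had 60.1, 93.1, 103 and 105 CPM, against 13.7, 20.2, 16.8 and 23.3 CPM. Rbm15 (chromosome 3, 107325421 to 107333673, minus strand) had 83.2, 46.5, 56.4 and 53.9 CPM, against 11.1, 14.1, 14.5 and 13.7 CPM. Kdm6b (chromosome 11, 69398508 to 69413675, minus strand) had 113, 164, 77.9 and 142 CPM, against 23.5, 33.6, 29.6 and 38.3 CPM. None of these groups of libraries overlapped. The log2 ratios were 2.33 ± 0.08 for Notch2, 2.28 ± 0.22 for Abhd2, 2.14 ± 0.52 for Rbm15 and 1.96 ± 0.42 for Kdm6b.

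Few cells showed several of these 5 genes at once. At least 1 of Slc39a1, Notch2, Abhd2, Rbm15 and Kdm6b had a UMI in 64.6% of the cells of cluster 7 (61.0 to 68.1), 47.0% of cluster 4 (44.7 to 49.3) and 17.0% of the other 8 clusters (16.4 to 17.7). In thinned cells these shares were 35.1%, 24.7% and 6.63%. All 5 were seen in 3 cells of cluster 7, 2 of cluster 4 and 0 of the 14383 other cells (exact 95% upper bound 0.0256%). UMIs were spread over many cells, and the 3 richest cells held 6.60% of the Slc39a1 UMIs and 11.9% of the Rbm15 UMIs of cluster 7.

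**Figure D2:**
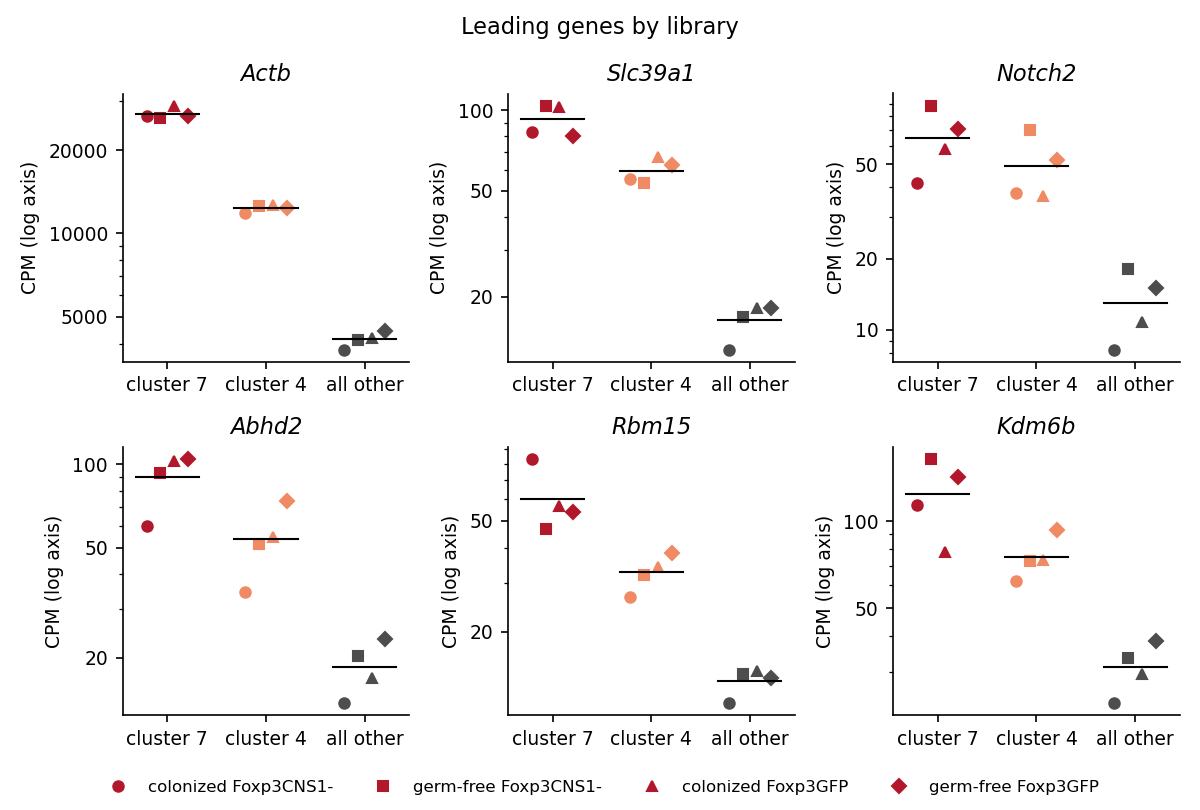
CPM (log axis) of the 6 leading genes in cluster 7, cluster 4 and all other analysed cells, with 1 point per library and a bar at the mean. Cluster 7 is highest on average for each gene, and for Actb its libraries lie between 26164.1 and 28910.1 CPM, above those of cluster 4 (11798 to 12647.5 CPM).

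Across the transcriptome, 46 genes were more than 2-fold higher in cluster 7 than in all other cells in each of the 4 libraries, of 8342 genes with at least 50 UMIs over both sums in every library (0.551%). No gene was more than 2-fold lower in all 4 (0 of 8342, or 0%), by summed counts and with no test run. Kmt2d, a methyltransferase that marks enhancers, had 76.3, 124, 94.5 and 108 CPM in cluster 7, against 17.9, 22.3, 24.5 and 25.7 CPM in the others, in the library order given above. Its log2 ratio was 2.15 ± 0.23, and the 2 sets of libraries did not overlap. Supt16, a subunit of the histone chaperone FACT, had a log2 ratio of 1.82 ± 0.12, and Rpgrip1, known from photoreceptor cilia, had 2.29 ± 0.32. Both genes lie on chromosome 14 on opposite strands and share 3133 bases, with 377 and 380 UMIs in cluster 7, and whether the counting used strand was not stated, so both values are uncertain. Insig1, an endoplasmic reticulum protein of sterol control, had 1.85 ± 0.19, the zinc finger gene Zscan26 1.90 ± 0.29, the F-box gene Fbxo46 1.63 ± 0.09 and D17H6S53E 2.37 ± 0.35. Fbxo46, D17H6S53E and Zscan26 also overlap a gene on the other strand, by 471, 68 and 3755 bases.

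The other examples of the 46 were picked after their values were seen. Cbx3, a heterochromatin protein, had a log2 ratio of 1.504 ± 0.23 and a UMI in 65.9% of the cells of cluster 7. Marf1 and the deadenylase subunit gene Pan3, both of RNA decay, had 1.36 ± 0.09 and 1.42 ± 0.10. Foxo3, a transcription factor of quiescence, had 1.44 ± 0.14, Cdkn1b, which encodes a cyclin-dependent kinase inhibitor, 1.28 ± 0.21, and Ptpn22, a phosphatase that dampens T cell receptor signals, 1.39 ± 0.15. Lgals3 had 2.65 ± 0.75 but rested on 16 cells, of which 3 held 76.8% of its UMIs. Of the 46 genes, 34 had a UMI in at least 10% of the cells and 7 carried a provisional Gm or Rik symbol.

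The genes that were lower in every library differed by less. Gbp2, an interferon-inducible GTPase, had 23.1, 33.2, 74.6 and 24.6 CPM in cluster 7, against 104, 65.6, 123 and 59.4 CPM in the other cells. Its log2 ratio was -1.29 ± 0.63, and the 2 sets of libraries overlapped. Rnf145 had -0.67 ± 0.18, Arid5b, a chromatin cofactor, -0.56 ± 0.05, and Socs3, a suppressor of cytokine signals, -0.52 ± 0.12. The other genes named by the same rule lay between -0.63 for Trappc5 and -0.39 for the MHC class I gene H2-Q7, among them Ly6c1 at -0.43 ± 0.07.

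Genes that share a role with a leading gene differed less from the other cells. Over all genes tested, 991 (11.9%) were higher and 802 (9.61%) lower in all 4 libraries, and the median log2 ratio was -0.02. Of 24 genes of the actin cytoskeleton, 20 were higher in all 4 libraries and 0 lower, with a median of 0.28, far below the 2.71 of Actb. The Arp2/3 gene Actr2, which nucleates branched filaments, had 0.86 ± 0.15, the nonmuscle myosin gene Myh9 0.76 ± 0.43, Actg1 0.47 ± 0.11, the profilin gene Pfn1 0.39 ± 0.07 and the cofilin gene Cfl1 0.31 ± 0.11. Of 14 zinc transport genes, 4 were higher and 2 lower, with a median of -0.02 against 2.50 for Slc39a1, and Slc39a6 followed at 0.48 ± 0.20. Of 23 Notch pathway genes, 2 were higher and 3 lower, with a median of -0.01. Notch1 had -0.09 ± 0.28, the transcription factor of the pathway, Rbpj, -0.27 ± 0.45, and its coactivator Maml1 -1.05 ± 0.74.

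In RNA methylation 3 genes besides the leading gene Rbm15 were higher. Of 16 genes of N6-methyladenosine, 4 were higher in all 4 libraries and 0 lower, and 3 of the 4 were past 2-fold. The writer subunit gene Wtap had 1.58 ± 0.17, the eraser gene Alkbh5 1.42 ± 0.32 and the reader gene Ythdf2 0.88 ± 0.09, beside Rbm15 at 2.14. The catalytic subunits did not stand with them, with Mettl3 at -0.37 ± 0.37 and Mettl14 at 0.19 ± 0.39, and the median of the list was -0.12. Histone demethylases had a median of -0.14 with 1 of 17 higher, Kdm6b itself, and 3 lower. Histone methyltransferases had -0.04, with 3 of 21 higher and 3 lower.

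Effector genes were higher and naive genes lower. Of 18 effector T cell genes, 13 were higher in all 4 libraries and 0 lower, with a median of 0.50. S100a4 and S100a6, calcium-binding proteins of activated T cells, had log2 ratios of 1.24 ± 0.67 and 1.08 ± 0.31, the galectin gene Lgals1 1.07 ± 0.36 and the chemokine receptor gene Cxcr6 1.13 ± 0.40. Of 16 naive genes, 0 were higher and 6 lower, with a median of -0.33, and the survival receptor gene Il7r at -0.54 ± 0.29, though in germ-free Foxp3GFP the list median was 0.03. Of 15 Treg core genes, 1 was higher, Ctla4 at 0.19 ± 0.16, and 7 were lower, among them Foxp3 at -0.47 ± 0.33, with a median of -0.18. Of 18 T cell receptor and immediate early response genes, 0 were higher and 2 lower, with a median of 0.06. Of 17 NF-kappaB genes, 0 were higher and 4 lower, with a median of -0.14. Glycolysis genes had a median of 0.23 with 5 of 14 higher and 0 lower, and Gapdh had 0.45 ± 0.26. Cell cycle genes had medians of 0.37 in S phase, with 5 of 16 higher, and 0.71 in G2/M, with 7 of 14 higher. These summed values can rest on few cells. Ube2c had UMIs in 6 cells of colonized Foxp3CNS1- in cluster 7, of which 3 held 93.1%. Cells like those of cluster 8, the dividing cells, were 4.99% of cluster 7. Cluster 8 itself was 4.45% of the cells outside clusters 4 and 7. Genes of cytosolic ribosomal proteins went the other way, with 72 of 80 lower, 0 higher and a median of -0.19. They took 33.8% of the UMIs of the median cell in cluster 7 and 37.8% in the others.

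**Figure D3:**
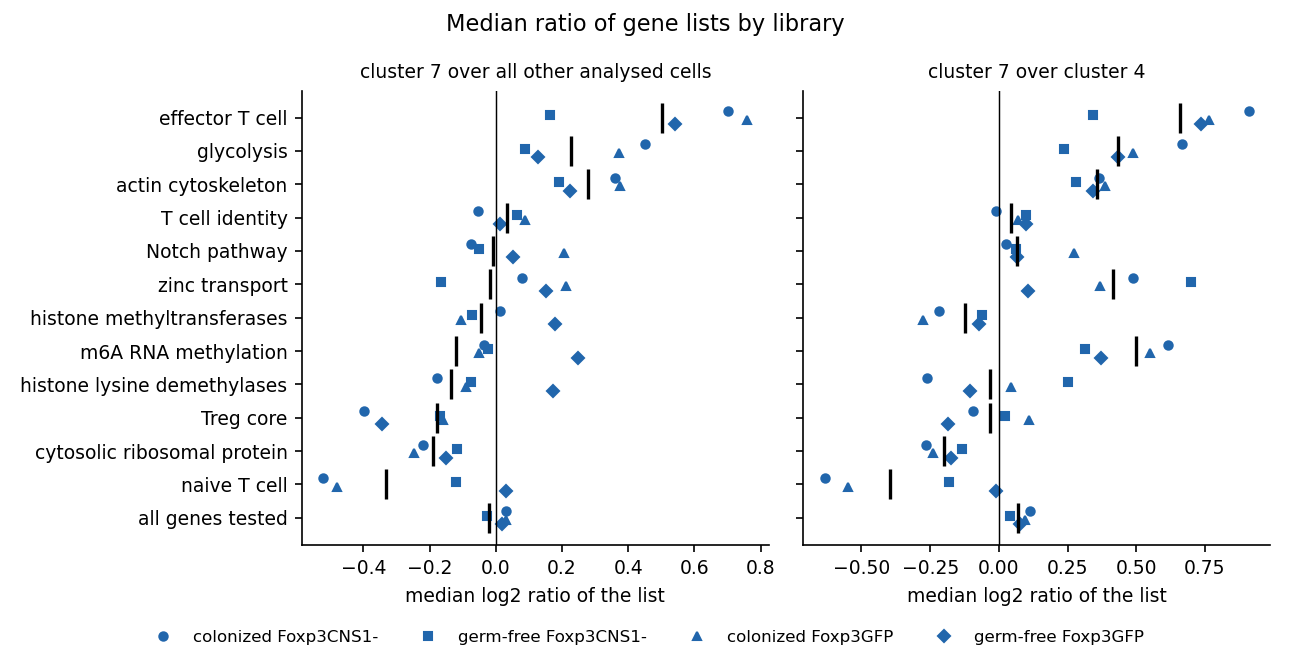
Median log2 ratio of cluster 7 over all other analysed cells and over cluster 4 (horizontal axis) for gene lists (vertical axis), with 1 point per library, a bar at the median of the mean ratios, and all genes tested in the last row. Effector and actin genes lie to the right in all 4 libraries and ribosomal protein genes to the left, while naive genes lie to the left except against all other cells in germ-free Foxp3GFP.

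Cluster 4 shared the leading genes of cluster 7 at lower levels. To see how far, both were set against the 8 clusters other than 4 and 7. In each of the 4 libraries 56 genes were more than 2-fold higher in cluster 7 (0.693% of 8079) and 33 in cluster 4 (0.401% of 8220). Among genes tested in both, 31 were shared, which is 55.4% of the 56 genes of cluster 7 and 96.9% of the 32 of cluster 4. The mean ratio was larger in cluster 7 for 54 of the 56 genes, whose choice through cluster 7 favours that, and for 29 of the 32 chosen through cluster 4. Both sets of ratios share their denominator cells.

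Set directly against cluster 4, 5 of 3154 genes (0.159%) were more than 2-fold higher in cluster 7 in all 4 libraries and 0 (0%) were lower, by summed counts with no test run. The 5 were Hist1h2ap, Stmn1, Lgals1, S100a6 and Actb, of which Hist1h2ap and Stmn1 had UMIs in under 10% of the cells. The count of 5 was 1 after thinning and 2 with equal weight per cell. It was 1 without the cells above the 98th percentile of UMIs in their library. Lgals1 had 1331, 399, 965 and 580.1 CPM in cluster 7, against 273, 177, 344 and 157 CPM in cluster 4, in the library order given above. Its log2 ratio was 1.71 ± 0.48, and the libraries of the 2 clusters did not overlap. In cluster 7, however, 3 cells held 51.2% of the Lgals1 UMIs of colonized and 41.7% of those of germ-free Foxp3CNS1-. S100a6 had 455, 137, 448 and 151 CPM in cluster 7, against 142, 64.7, 122 and 51.7 CPM in cluster 4. For S100a6 the 2 germ-free libraries of cluster 7 lay near the colonized libraries of cluster 4. Hmgb2, a chromatin protein of dividing cells, had 1.55 ± 0.72, the linker histone gene H1f0 1.09 ± 0.31, Smco4 1.06 ± 0.26 and Dap 0.82 ± 0.10.

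The leading genes other than Actb were closer between the clusters. The log2 ratio of cluster 7 over cluster 4 was 0.85 ± 0.54 for Rbm15, 0.77 ± 0.18 for Abhd2, 0.68 ± 0.46 for Kdm6b, 0.64 ± 0.25 for Slc39a1 and 0.39 ± 0.21 for Notch2, against 1.13 ± 0.06 for Actb. Over all 3154 genes 738 (23.4%) were higher and 291 (9.23%) lower in all 4 libraries, with a median of 0.07. Effector genes had a median of 0.66 with 8 of 10 higher, actin genes 0.36 with 19 of 23 higher, and glycolysis genes 0.43 with 10 of 12 higher, the enzyme genes Tpi1 at 0.92 and Gapdh at 0.72 among them. Naive genes had -0.40 with 8 of 14 lower, ribosomal protein genes -0.20 with 70 of 80 lower, and Treg core genes -0.03. T cell receptor and immediate early response genes had 0.008 with 0 of 7 higher and 1 lower. NF-kappaB genes had -0.06 with 0 of 9 higher and 1 lower. Lower in cluster 7 were Gbp2 at -1.36 ± 0.65, Kdm7a, another histone demethylase, at -0.92 ± 0.53, Socs3 at -0.72 ± 0.16 and the survival gene Bcl2 at -0.69 ± 0.20. Median depth was 2334 UMIs in cluster 7 and 2442 in cluster 4.

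Cluster 7 was mixed in what its cells otherwise expressed. Each cell was assigned to the set of other clusters it most resembled, after 97 genes that led both clusters 4 and 7 had been left out. The sets were clusters 0, 3 and 6, where Foxp3 had 134 to 240.3 CPM, clusters 1 and 2, where the naive gene Ccr7 had 374 to 389.9 CPM, cluster 5, where S100a6 had 539 CPM, cluster 8, where the dividing-cell gene Mki67 had 139 CPM, and cluster 9, where Cxcr5 had 184 CPM. Of the 721 cells, 33.8% resembled clusters 0, 3 and 6 (30.4 to 37.4), 39.1% clusters 1 and 2 (35.5 to 42.8), 14.6% cluster 5, 4.99% cluster 8 and 7.49% cluster 9. In cluster 4 the same shares were 43.1%, 47.4%, 4.501%, 1.302% and 3.69%. By their own cluster numbers, the cells outside clusters 4 and 7 were 46.1%, 37.1%, 11.8%, 4.45% and 0.584% in these sets. The assignment returned 78.8% of held-out cells to their own set but 36.7% of those of cluster 5, so the cluster 5 share is the least certain. Of cluster 9 it returned 34 of 51 held-out cells (66.7%). Shares by assignment and by cluster number are unlike measures, so a difference between them is not read as an excess. The cluster 5 share was 24.3%, 8.43%, 27.2% and 7.09% of cluster 7 in the library order given above, and that of clusters 1 and 2 was 24.3%, 42.8%, 30.2% and 47.9%. By their own cluster numbers, the cells outside clusters 4 and 7 gave 16.66%, 10.97%, 10.09% and 6.59% for cluster 5 in the same order. For clusters 1 and 2 they gave 28.13%, 37.06%, 39.77% and 48.74%. The genes used for the assignment also differed between libraries.

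The leading genes were high in each of these subsets. Every gene, the leading genes among them, had gone into the clustering that grouped these cells. The high levels of the leading genes in a subset therefore follow in part from that grouping. Among the 244 cells that resembled clusters 0, 3 and 6, Actb had 26979 CPM against 2991 CPM in those clusters, a log2 ratio of 3.17 (3.15 to 3.20, counting error only). Slc39a1 had 95.9 against 11.4 CPM there, and Notch2 116 against 11.1 CPM. Foxp3 had 139 against 162 CPM, or -0.21 on the log2 scale (-0.56 to 0.11). The libraries differed in this, with -0.95 (-1.80 to -0.21) in germ-free Foxp3GFP, which gave 93 of the 244 cells, and intervals that held 0 in the other 3. Among the 282 cells that resembled clusters 1 and 2, Slc39a1 had 67.7 against 9.20 CPM and Ccr7 379 against 383 CPM, or -0.01 on the log2 scale (-0.19 to 0.16). The 36 cells that resembled cluster 8 had Top2a, a topoisomerase of dividing cells, at 345 against 377 CPM, and Slc39a1 at 111.5 against 13.8 CPM. Since cells were assigned by genes such as Foxp3, Ccr7 and Top2a, their levels follow in part from the assignment. Actg1 was at log2 ratios of 0.18, 0.28, 0.34 and 0.35 in the first 4 subsets and -0.34 in cells that resembled cluster 9.

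**Figure D4:**
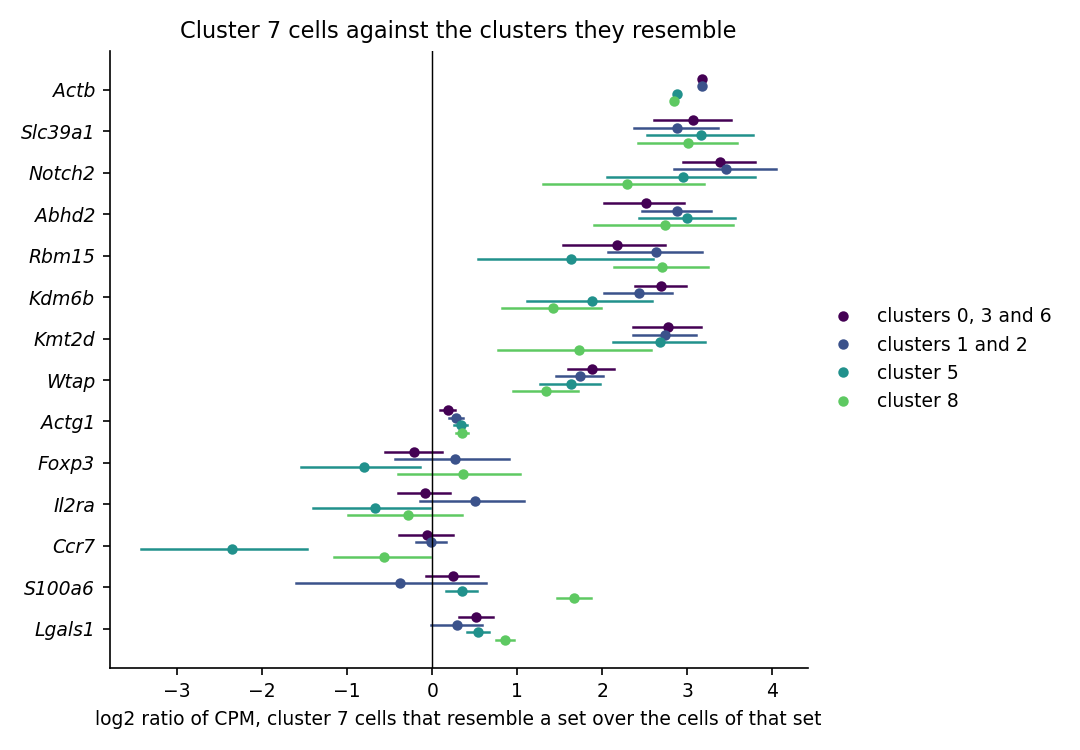
Log2 ratio of the cells of cluster 7 over the clusters they resembled (horizontal axis) for each gene (vertical axis), over all 4 libraries, with exact 95% intervals for counting error. The 6 leading genes are high in the 4 subsets drawn, and Actg1 lies between 0.18 and 0.35. All these genes had gone into the clustering.

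Within cluster 7 a difference of the leading genes by Actb level was mostly not detectable at this depth. Cells were split at the median Actb of their library, with 20 to 47 cells per library within 1 UMI of that median. Slc39a1 then had 79.6, 110, 103 and 80.7 CPM in the cells above it, against 86.7, 96.1, 103 and 80.1 CPM in the rest. The intervals of Slc39a1, Notch2, Abhd2 and Rbm15 held 0 in every library, and so did those of Kdm6b except in germ-free Foxp3GFP, where the log2 ratio was 0.82 (0.15 to 1.51). Outside clusters 4 and 7, the cells in the top 5% by thinned Actb did have more Slc39a1. Their Slc39a1 levels were 27.4, 27.3, 31.7 and 38.8 CPM, against 8.64, 11.7, 11.2 and 9.13 CPM in the rest of those clusters. There the intervals of Slc39a1 left out 0 in 4 of 4 libraries, those of Notch2 and Kdm6b in 2, those of Rbm15 in 1 and those of Abhd2 in 0. The split by Actb is a range on a continuous measure and not a cell type. The 227 cells of the count table with no entry in the cell table had 10735.6 CPM of Actb and 49.7 CPM of Slc39a1, and the 303 cells removed by the authors had 4271 and 20.8 CPM.

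Colonization of Foxp3GFP mice was compared within cluster 7 to ask which genes of these cells differed between microbial states. Of 3037 genes that reached 50 UMIs in the 2 libraries together, 88 (2.9%) were more than 2-fold higher and 47 (1.55%) lower in colonized cells. In all other cells the same genes gave 29 (0.955%) and 5 (0.165%), from larger sums. Interferon-stimulated genes were higher in 23 of 25 members, where 57.1% of all genes were higher, and their median log2 ratio was 0.94 in cluster 7 and 0.76 in the other cells. Isg15 had 240.4 CPM in colonized and 38.5 CPM in germ-free cells, or 2.64 on the log2 scale (2.02 to 3.32), with intervals here and below for counting error only. Ifit3 had 118 against 9.23 CPM, Irf7, a transcription factor of this response, 119 against 13.8 CPM, and Ifi27l2a 2621 against 928 CPM. Ly6a, a surface protein raised by interferon, had 889 against 129 CPM, or 2.78 on the log2 scale (2.45 to 3.13), and was found in 105 of 162 against 52 of 282 cells. Its ratio in the other cells was 2.10.

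Effector genes were higher and naive genes lower in colonized Foxp3GFP cells of cluster 7. Effector genes had a median of 0.50 with 13 of 15 higher, and naive genes -0.41 with 12 of 14 lower (42.9% of all genes were lower). The other cells gave 0.48 and -0.00. Of the colonized and germ-free Foxp3GFP cells of cluster 7, 27.2% and 7.09% resembled cluster 5, and 30.2% and 47.9% resembled clusters 1 and 2. In Foxp3CNS1- these shares were 24.3% and 8.43% for cluster 5, and 24.3% and 42.8% for clusters 1 and 2. By their own cluster numbers, the cells outside clusters 4 and 7 differed in the same direction. Cluster 5 held 10.09% of colonized and 6.59% of germ-free cells there in Foxp3GFP, and 16.66% and 10.97% in Foxp3CNS1-. Clusters 1 and 2 held 39.77% and 48.74% in Foxp3GFP, and 28.13% and 37.06% in Foxp3CNS1-. The part of these shares in the gene values was not tested. Ccr2, a chemokine receptor, had 109 against 10.8 CPM. Gzmb, a cytotoxic protease gene, had 51 UMIs in 15 cells against 2 UMIs in 2 cells, or 4.78 on the log2 scale (2.85 to 7.86). Gzma had 58 against 1 UMIs, or 5.97 on the log2 scale (3.43 to 11.29), and 3 cells held 98.3% of them. Plac8 had 131 against 7.69 CPM, with 62.0% of its UMIs in 3 cells. Igfbp4, a gene of naive cells, had 128 against 345 CPM, or -1.43 on the log2 scale (-1.83 to -1.05), where the other cells gave -0.02. Dapl1 had 58.0 against 213.9 CPM, Foxp1, a factor that keeps T cells quiescent, 103 against 260.03 CPM, and the follicular helper gene Sostdc1 18.2 against 118 CPM, with its 11 colonized UMIs in 1 cell. Foxp3 had 82.9 against 46.2 CPM, or 0.84 on the log2 scale (0.16 to 1.55), and Treg core genes had a median of 0.29 with 11 of 13 higher.

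The same comparison in Foxp3CNS1- mice gave 64 (2.8%) of 2287 genes more than 2-fold higher and 23 (1.01%) lower in colonized cells. These genes gave 19 (0.831%) and 1 (0.0437%) in the other cells, from larger sums. With a minimum of 200 UMIs the counts of cluster 7 were 10 and 0. Interferon-stimulated genes were higher in 14 of 16 members, where 60.1% of all genes were, with a median of 0.54 in cluster 7 and 0.72 in the other cells. Isg15 had 236 CPM in colonized and 84.2 CPM in germ-free cells, or 1.49 on the log2 scale (0.93 to 2.06). Effector genes had a median of 0.62 with 11 of 11 higher, and naive genes -0.45 with 10 of 13 lower (39.9% of all genes were lower). Lgals1 had 1331 against 399 CPM, with 51.2% of the colonized UMIs in 3 cells. S1pr1, which lets T cells leave the node, had 55.5 against 159.6 CPM, and the RNA-binding gene Zfp36l2 27.7 against 113 CPM. Foxp3 had 55.5 against 77.6 CPM, or -0.48 on the log2 scale (-1.30 to 0.31), and Treg core genes had a median of -0.11. Whether either colonization ratio differed between the genotypes was not tested.

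Genes of dividing cells led the Foxp3CNS1- comparison through few cells. Rrm2, a subunit of ribonucleotide reductase, had 169 CPM in colonized and 13.3 CPM in germ-free cells, with 71.2% of the colonized UMIs in 3 cells. Ube2c, of the mitotic ubiquitin pathway, had 201 against 22.2 CPM with 93.1% in 3 cells, and Birc5 had 254 against 37.7 CPM with 66.4% in 3 cells. Lgals3 had 89 UMIs in 3 cells against 12 UMIs in 1 cell. S phase genes had medians of 1.33 with 5 of 5 higher in Foxp3CNS1- and 1.33 with 8 of 8 higher in Foxp3GFP. G2/M genes had 2.19 with 6 of 6 and 1.18 with 4 of 4. Over all genes tested, 60.1% were higher in Foxp3CNS1- and 57.1% in Foxp3GFP. The other cells went the same way by less. Their S phase medians were 0.498 with 5 of 5 higher in Foxp3CNS1- and 0.474 with 8 of 8 higher in Foxp3GFP. Their G2/M medians were 1.002 with 6 of 6 and 0.748 with 4 of 4. In cluster 7, cells that resembled cluster 8 were 12 of 111 in colonized and 3 of 166 in germ-free Foxp3CNS1-. In Foxp3GFP they were 15 of 162 in colonized and 6 of 282 in germ-free cells. Cluster 8 itself was 5.61% of colonized and 2.81% of germ-free cells outside clusters 4 and 7 in Foxp3CNS1-, and 5.103% and 3.46% in Foxp3GFP. The cells of cluster 7 richest in UMIs (past the 98th percentile of each library) were then left out. The Foxp3CNS1- median of G2/M genes in cluster 7 was -0.27 without them, and the count of genes past 2-fold was 21 higher and 11 lower.

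The leading genes showed no common direction under colonization. Their median was 0.02 in Foxp3GFP with 3 of 6 higher, and -0.43 in Foxp3CNS1- with 2 of 6 higher, where the other cells gave -0.23 and -0.46. Actb had a log2 ratio of 0.13 (0.10 to 0.16) in Foxp3GFP and 0.02 (-0.02 to 0.05) in Foxp3CNS1-. Kdm6b had 77.9 CPM in colonized and 142 CPM in germ-free Foxp3GFP cells, or -0.86 on the log2 scale (-1.40 to -0.34). Notch2 had 41.6 against 88.7 CPM in Foxp3CNS1-, or -1.09 on the log2 scale (-1.98 to -0.26), and the other cells gave -1.13. Cells with an Hspa1a or Hspa1b UMI, which carry a heat shock transcript, were 7 of 111 and 0 of 166 in colonized and germ-free Foxp3CNS1- (exact 95% upper bound 2.20%), and 22 of 162 and 1 of 282 in colonized and germ-free Foxp3GFP. In the other cells the shares were 8.90% and 0.356% in colonized and germ-free Foxp3CNS1-, and 9.80% and 0.216% in colonized and germ-free Foxp3GFP. Cells with at least 10 immunoglobulin UMIs were 6.31%, 3.01%, 8.02% and 2.13% of cluster 7 in the library order given above, against 6.80%, 3.65%, 5.77% and 2.89% of the other cells. With the Hspa1a or Hspa1b cells left out, the colonization counts past 2-fold were 63 higher and 25 lower in Foxp3CNS1-. In Foxp3GFP they were 78 and 50. Without the cells rich in immunoglobulin they were 49 and 19 in Foxp3CNS1-, and 68 and 42 in Foxp3GFP. All cells gave 64 and 23, and 88 and 47. The part of these cells in the values of single genes was not tested.

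**Figure D5:**
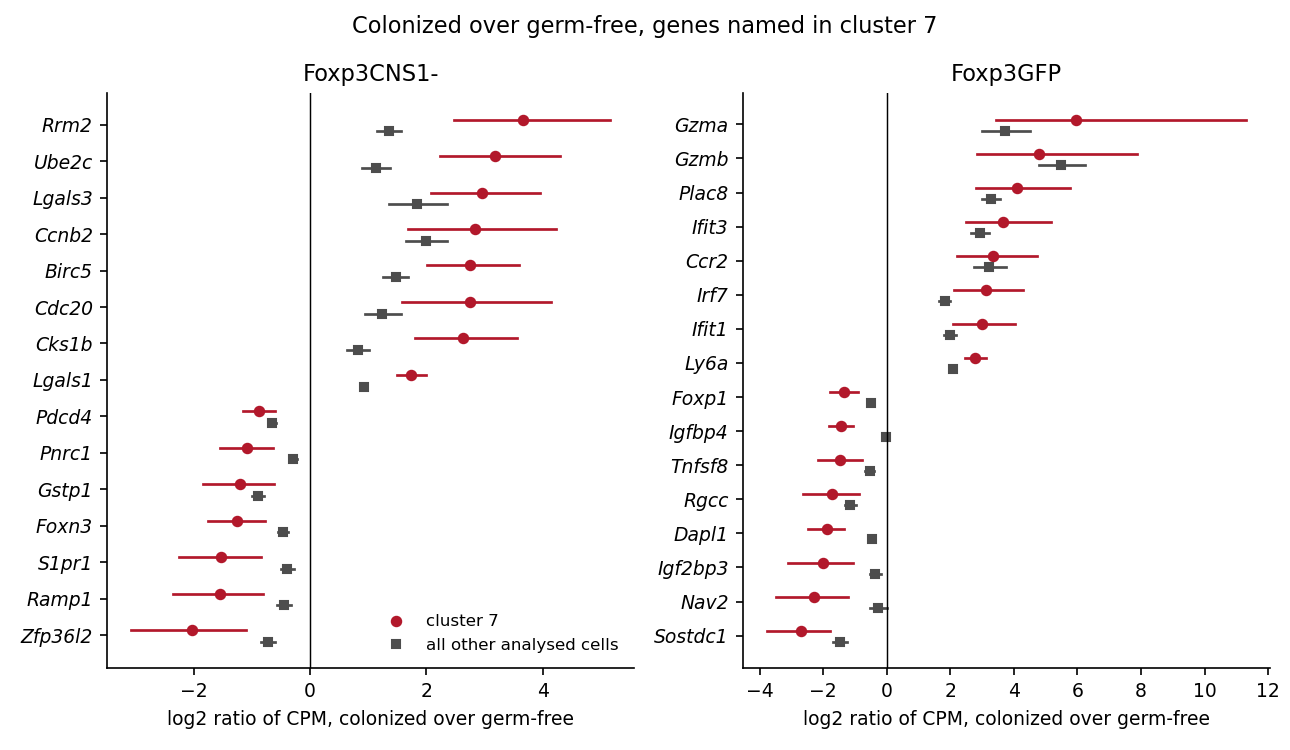
Log2 ratio of colonized over germ-free cells (horizontal axis) for genes named by rule (vertical axis) in Foxp3CNS1- (left) and Foxp3GFP mice (right), in cluster 7 (circles) and all other analysed cells (squares), with exact 95% intervals for counting error. Ly6a, Ifit1, Ifit3 and Irf7 lie to the right in Foxp3GFP, and the interval of Gzma runs from 3.43 to 11.29.

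The genotype comparisons asked how cells without the enhancer differed from Foxp3GFP cells in the same microbial state. In germ-free mice 10 of 2697 genes (0.371%) were more than 2-fold higher and 19 (0.704%) lower in Foxp3CNS1- cells of cluster 7. These genes gave 0 (0%) and 1 (0.0371%) in the other cells, from larger sums. With a minimum of 200 UMIs the counts of cluster 7 were 1 and 1. Foxp3 had 77.6 CPM in Foxp3CNS1- and 46.2 CPM in Foxp3GFP, or 0.75 on the log2 scale (0.0034 to 1.503). The deleted enhancer is intronic and outside what 3′ tags capture, and Foxp3 overlaps other genes, so its level does not check the genotype. Myh9 had 144 against 308 CPM, or -1.09 on the log2 scale (-1.52 to -0.68), where the other cells gave -0.17. The kinase gene Txk had 77.6 against 151 CPM and the ubiquitin ligase gene Cbl 33.2 against 78.5 CPM. Higher in Foxp3CNS1- were Actr10, a dynactin subunit, at 110.8 against 47.7 CPM, and Rgs1, a regulator of chemokine receptor signals, at 113 against 52.3 CPM. Treg core genes had a median of 0.36 with 9 of 12 higher, where 53.4% of all genes were higher, and naive genes -0.30 with 13 of 14 lower, where 46.6% were lower. The other cells gave 0.13 with 11 of 12 Treg core genes higher, and -0.21 with 1 of 14 naive genes higher.

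In colonized mice 19 of 2638 genes (0.72%) were more than 2-fold higher and 15 (0.569%) lower in Foxp3CNS1- cells of cluster 7. These genes gave 2 (0.0758%) and 1 (0.0379%) in the other cells, from larger sums. With a minimum of 200 UMIs the counts of cluster 7 were 0 and 1. Interferon-stimulated genes had a median of -0.44 with 24 of 25 lower, where 45.5% of all genes were lower. In the other cells their median was -0.19 with 0 of 25 higher. Gbp2 had 23.1 CPM in Foxp3CNS1- and 74.6 CPM in Foxp3GFP, or -1.69 on the log2 scale (-2.84 to -0.68), and Gbp3 32.4 against 92.8 CPM. The Gbp2 value rested on 10 against 45 UMIs. In the other cells the log2 ratios were -0.25 for Gbp2 and -0.19 for Gbp3. Isg15 had 236 CPM in Foxp3CNS1- and 240.4 CPM in Foxp3GFP. Treg core genes had a median of -0.16 with 4 of 13 higher, where 54.5% of all genes were higher. The other cells gave 0.07 with 8 of 13 Treg core genes higher. Foxp3 had 55.5 CPM in Foxp3CNS1- and 82.9 CPM in Foxp3GFP, or -0.58 on the log2 scale (-1.35 to 0.15). Malt1, of the signalling complex below the T cell receptor, had 37.0 against 92.8 CPM, and Abhd2 60.1 against 103 CPM. Higher in Foxp3CNS1- were genes of dividing cells such as Ube2c, Birc5 and Cdc20, with 93.1%, 66.4% and 91.1% of their UMIs in 3 cells, and 7 genes in place of 19 were higher with cells past the 98th percentile of UMIs left out. The 2 genotype comparisons share no library, but each shares its libraries with the colonization comparisons above.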

How the data were processed

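CD4 T cells of 4 libraries were read from a table of UMI counts deposited by the authors, made per the submitters' processing notes with Cell Ranger and Scanpy 1.5.1 on mm10, and from their cell table, which gives library, filter and PhenoGraph cluster. The Cell Ranger version, cell filters and doublet treatment were not given in the sources used here. No doublets were removed. The count table had 17478 cells, of which 17251 had an entry in the cell table. Of these, 303 had been removed by the authors.

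UMIs were summed per library and cluster, scaled to CPM, and compared as log2 ratios with exact 95% intervals (Clopper-Pearson, scipy 1.17.1, Python 3.11.15). Intervals cover counting error only, not differences between mice. A gene needed 50 UMIs over both sums, a count of 0 was set to 3 counts, and a gene was counted past 2-fold (in all 4 libraries for cluster comparisons). Cells were thinned to 1000 UMIs with a fixed seed and assigned to other clusters by a naive Bayes score. Named genes were the 6 leading genes, the 12 highest and 12 lowest against all other cells (8 and 8 against cluster 4) by the ratio nearest to 1 over the libraries, and up to 8 per direction between libraries by the interval bound nearest to 1. Named genes also needed a UMI in 10% of the cells where they were higher, in the cluster comparisons. The ranking skipped Xist, predicted and Y-linked genes, and genes of mitochondria, ribosomal proteins, immunoglobulins and T cell receptors. Other genes named were picked after their values were seen. The members and the gene lists were chosen with earlier results of these data known. The calculation was tested on simulated data. Some of the genes that the rule chose are not reported here. Positions come from GENCODE M21 (GRCm38).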

Additional observations from a re-analysis of the deposited data

Results flagged for a closer look

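The ratio of Foxp3CNS1- over Foxp3GFP cells of cluster 7 went in opposite directions in the 2 microbial states for 2 of the named genes, with intervals for counting error that left out 0 in both states. The differences themselves were not tested, since each group was 1 library.

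Ly6a, a surface protein raised by interferon, had a log2 ratio of -0.64 (-0.87 to -0.42) in colonized mice and 0.56 (0.11 to 1.01) in germ-free mice. Its UMIs were spread over cells, with 24.8% of the colonized Foxp3CNS1- and 22.8% of the colonized Foxp3GFP UMIs in the 3 richest cells. Ly6a was higher in colonized than in germ-free cells of both genotypes, by 1.58 (1.22 to 1.95) in Foxp3CNS1- and 2.78 (2.45 to 3.13) in Foxp3GFP.

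Hist1h2ap, a replication-dependent histone gene, had a log2 ratio of -1.08 (-1.38 to -0.80) in colonized mice and 1.503 (1.19 to 1.82) in germ-free mice. In germ-free mice 3 cells held 97.98% of the Foxp3CNS1- UMIs and 96.0% of the Foxp3GFP UMIs, and in colonized mice 92.6% and 85.3%. When cells past the 98th percentile of UMIs were left out, the germ-free value was -2.48.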

How the results depend on the processing

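No paired analysis was possible because each group has 1 library and the libraries share only a replicate number. For the same reason no replicate was left out. Counts below are of genes more than 2-fold higher, then lower.

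Against all other cells the counts of 46 and 0 were 76 higher with no minimum, 21 higher with a minimum of 200 UMIs, 20 and 2 after thinning, 91 and 5 past 1.5-fold, and 81 and 28 in at least 3 of 4 libraries. There was 1 lower gene each with equal weight per cell, without cells past the 98th percentile of UMIs, without immunoglobulin-rich cells and without cells with a Foxp3 UMI, and there were 3 with the other clusters at equal weight. Against cluster 4 the counts of 5 and 0 were 48 and 1 with no minimum, 2 higher with 200 UMIs, 1 higher after thinning, 2 higher with equal weight per cell, 1 higher without cells above the 98th percentile, 3 higher without cells with a Foxp3 UMI, 14 and 2 past 1.5-fold, and 12 and 2 in 3 of 4 libraries. Without immunoglobulin-rich cells 1 gene was lower.

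For colonization in Foxp3CNS1- the counts of 64 and 23 were 1148 and 840 with no minimum, 10 and 0 with 200 UMIs, 10 and 4 after thinning, 21 and 11 without cells above the 98th percentile, and 242 and 110 past 1.5-fold. In Foxp3GFP the counts of 88 and 47 were 1072 and 985, 10 and 6, 35 and 20 after thinning, and 358 and 206 past 1.5-fold. By genotype in colonized mice the counts of 19 and 15 were 921 and 821 with no minimum, 0 and 1 with 200 UMIs, 3 and 0 after thinning, 25 lower with equal weight per cell, 7 higher without cells above the 98th percentile, 8 lower without cells with a Foxp3 UMI, and 136 and 114 past 1.5-fold. In germ-free mice the counts of 10 and 19 were 882 and 919, 1 and 1, 9 lower after thinning, 27 and 30 with equal weight, 10 lower without cells with a Foxp3 UMI, and 127 and 113 past 1.5-fold. A lower minimum or fold counts more genes by construction.

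Of the list medians, 594 values under an alternative stayed within 0.25 of the original, 41 moved further and 8 changed sign from a size of at least 0.25. Against all other cells the follicular helper list was -0.31 with the other clusters at equal weight and -0.067 at the mix of clusters the cells resembled, a setting chosen after seeing the data. Against cluster 4 the N6-methyladenosine list was -0.087 with no minimum. Under colonization Treg core genes in Foxp3GFP were -0.032 without cells with a Foxp3 UMI. The leading genes in Foxp3CNS1- were 0.017 with 200 UMIs and 0.016 after thinning. Of the leading genes Actb alone reached 200 UMIs, so the value of 0.017 is its own ratio and not one of the list. The value after thinning was also near that of Actb. With cells past the 98th percentile of UMIs left out, G2/M genes were -0.27 under colonization in Foxp3CNS1- and -0.96 by genotype in colonized mice, and Hist1h2ap by genotype in germ-free mice was -2.48. The cause was not tested. For named genes the numbers of values near the original, moved and with the other sign were 1071, 101 and 1. A single UMI is worth 1.54 to 2.31 CPM in cluster 7, so genes of a few CPM cannot be resolved there.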
